A study of Mus musculus with 9 samples.

Results

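The cytoplasmic ribosomal protein genes were followed in mouse spinal cord as 79 of the 40879 gene symbols measured, 32 of the small and 47 of the large ribosomal subunit. The family was proposed with earlier results of these data in view, in which Rps16 and Rpl28 stood among the genes with the smallest p in EAE vehicle against naive cord. Its members were then selected on their symbols alone: Rpsa, Fau, Rplp0, Rplp1, Rplp2 and every symbol made of Rpl or Rps, a number and at most a letter suffix, without the S6 kinases, 5 retrogene copies and the rows named as processed copies. All 79 passed the filter on low counts, among 15351 genes tested. Because the EAE vehicle against naive contrast led to the choice, its values are given here as a description, and nothing is read from its test counts.

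RNA came from whole cord of wild-type (WT) mice, with 3 libraries in each of 3 groups. The naive controls had no disease. In the other mice experimental autoimmune encephalomyelitis (EAE) had been induced, an immune attack on myelin that inflames the cord and models multiple sclerosis, and they had received vehicle or the telomerase peptide GV1001. No label gives the strain, age, EAE protocol, day or dose, or whether the 3 libraries of a group came from separate animals, so p-values measure only the spread between these libraries. RNA was extracted with TRIzol or a Maxwell RSC kit, and which sample had which was not stated. Each library held between 5247246 and 6174870 counts of transcript 3′ ends.

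A ribosome holds nearly every one of these proteins, and their messages are among the most abundant in a cell. In vertebrates nearly all of them begin with a C followed by a run of pyrimidines, the 5′ terminal oligopyrimidine (TOP) tract, through which mTORC1 signalling and the RNA-binding protein LARP1 set their translation and stability together. Growing and dividing cells, activated leukocytes among them, carry much of this RNA.

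The TOP tract could be read for the 59 members that matched the RefSeq promoter table (GRCm38.p6). It is shown for 10 members whose levels are described below, with Rpl3l as a contrast, as windows from 10 bases before to 20 bases after the annotated start on the coding strand. Capitals mark a C followed by at least 7 pyrimidines.
Rps16 (chr7:28350679-28350708, + strand): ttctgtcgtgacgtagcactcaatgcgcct
Rpl28 (chr7:4792955-4792984, + strand): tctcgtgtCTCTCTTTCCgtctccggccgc
Rps18 (chr17:33955646-33955675, − strand): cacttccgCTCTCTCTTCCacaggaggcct
Rplp2 (chr7:141447641-141447670, + strand): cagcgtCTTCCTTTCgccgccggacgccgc
Fau (chr19:6057937-6057966, + strand): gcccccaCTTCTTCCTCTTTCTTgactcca
Rpl35 (chr2:39005112-39005141, − strand): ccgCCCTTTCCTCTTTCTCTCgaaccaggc
Rps6 (chr4:86857348-86857377, − strand): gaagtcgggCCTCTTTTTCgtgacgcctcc
Rps15a (chr7:118116128-118116157, − strand): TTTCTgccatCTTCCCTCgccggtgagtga
Rps9 (chr7:3704031-3704060, + strand): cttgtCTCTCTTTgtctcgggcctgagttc
Rpl14 (chr9:120571507-120571536, + strand): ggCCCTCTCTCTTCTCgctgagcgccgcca
Rpl3l, first start (chr17:24727816-24727845, + strand): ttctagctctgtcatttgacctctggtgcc
Rpl3l, second start (chr17:24732675-24732704, + strand): caacagctacagtgccccaaatgtcctgaa
In Rps15a the first capitals are the end of a tract that begins before the window. Rps16 and both starts of Rpl3l hold no such run in these letters, which says nothing about starts that the annotation does not place there. From 20 bases before to 50 after the start, the motif was present in 48 of the 59 members (81.4%) and in 22.6% of 26966 other genes. It occurred in 20% of the 32851 promoters of the table. A C followed by at least 4 pyrimidines was in 56 of the 59 members (94.9%) and in 67.8% of other genes. CTTTCC on the coding strand, which overlaps the tract, was in 17 members (28.8%) and 3.74% of other genes (3.24% of promoters). The ETS-type motif CCGGAAG, searched on both strands from 250 bases before to 50 after the start, was in 24 members (40.7%) and 9.86% of other genes (8.86% of promoters).

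Before the family is described, the libraries themselves need a word. Summed markers of cord (Mbp, Mog, Gfap, Nefl, Nefm, Chat and Hoxc10) lay between 11085 and 15367 CPM in every library, lowest in vehicle replicate 1. Summed levels of marker lists and of copies are given as CPM of the library's total count, and levels of single genes as CPM of the TMM-scaled library size. Microglial markers summed to 300, 339 and 353 CPM in naive cord, 3227, 610 and 1481 under vehicle and 349, 1279 and 539 under GV1001. The 5 monocyte and macrophage markers summed to 7.66 to 14.8, 54.1 to 626 and 27.6 to 176 CPM, highest in vehicle replicate 1 and GV1001 replicate 2 within their groups. T cell markers summed to 1.96 to 3.61, 4 to 65.7 and 2.27 to 22.7 CPM, and the 5 B cell markers to 0.902 to 3.8, 3.81 to 32.3 and 0.945 to 3.88 CPM, with Cd79a at 0 in all 9 libraries. The 14 proliferation genes summed to 55.1 to 65.4, 80.5 to 205 and 66.1 to 90.1 CPM. Skeletal muscle markers reached 4268 CPM in GV1001 replicate 1 against 24.1 to 212 in naive libraries, Schwann cell markers ranged from 222 CPM in vehicle replicate 1 to 2268 in GV1001 replicate 3, and hemoglobin stood at 4819 CPM in vehicle replicate 2 against 252 to 713 in the other 8. Nuclear-retained RNAs lay between 9595 and 13896 CPM.

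Ribosomal protein transcripts took a larger share of the RNA in cord with EAE. In naive cord they made up 1.65%, 1.59% and 1.69% of a library's counts. With EAE they made up 2.74%, 2.03% and 2.2% under vehicle and 1.92%, 2.05% and 1.82% under GV1001. All 6 EAE libraries lay above all 3 naive libraries, and the vehicle and GV1001 groups overlapped, since GV1001 replicate 2 was above vehicle replicate 2. The group means were 1.64% ± 0.0475 (SD, n = 3), 2.32% ± 0.37 and 1.93% ± 0.12, which gave ratios of 1.42 for vehicle to naive, 1.18 for GV1001 to naive and 0.831 for GV1001 to vehicle. The spread among vehicle libraries was several times that among naive libraries. In whole tissue, more cells that carry much of this RNA and more of it per cell cannot be told apart. Summed monocyte and proliferation markers lay above the naive range in all 6 EAE libraries, and microglial and T cell markers did in 5 of the 6. In GV1001 replicate 1 the microglial (349 CPM), T cell (2.27) and B cell (0.945) sums lay inside the naive range, as did the B cell sum of GV1001 replicate 3 (2.75). Their part in the result was not tested.

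**Figure D1:**
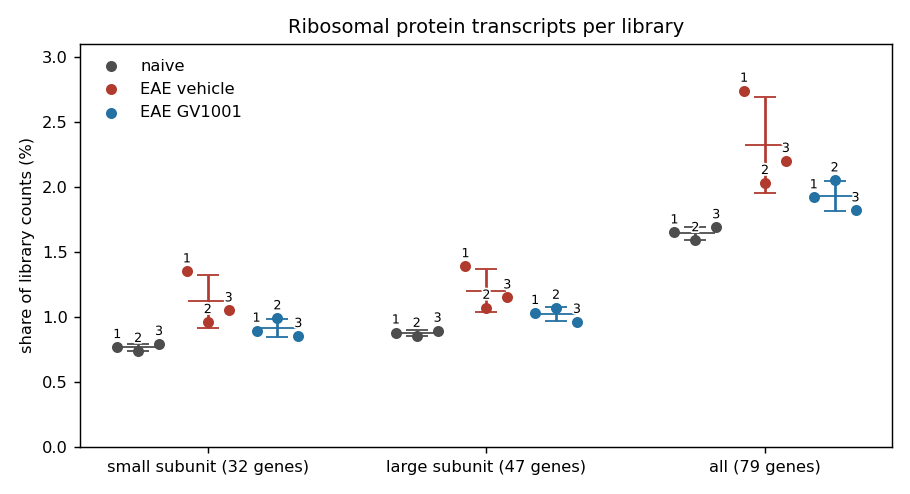
Share of each library's counts (y axis, percent) from the 32 small subunit genes, the 47 large subunit genes and all 79, with 1 point per library labelled by its replicate number and the mean ± SD of 3 libraries per group. All naive points for the 79 genes lie between 1.59% and 1.69%, below the EAE points, and vehicle replicate 1 stands highest at 2.74%.

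Both subunits showed this pattern. The small subunit genes took 0.766% ± 0.0273 of counts in naive, 1.12% ± 0.203 in vehicle and 0.912% ± 0.0697 in GV1001 cord (SD, n = 3). The large subunit genes took 0.876% ± 0.0203, 1.2% ± 0.167 and 1.02% ± 0.0523. Vehicle to naive ratios were 1.46 and 1.37. Without the 5 most abundant members the ratio for the family was 1.43, and of the total without mitochondrially encoded genes it was 1.39.

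Gene by gene, every member was higher in EAE vehicle than in naive cord. The log2 differences of all 79 were above 0, where 49.5% of all genes tested were, with a median of 0.51 against −0.005 over all genes (a fold of 1.42) and quartiles of 0.41 and 0.68. Without Rpl3l they ran from 0.05 (Rpl14) to 1.07 (Rpl10a). In 60 members all 3 vehicle libraries lay above all 3 naive libraries, beside 12% of all genes. The edgeR quasi-likelihood test called 0 members at an adjusted p of 0.05, beside 0.0195% of all genes in either direction. At an unadjusted edgeR p under 0.05, 61 members were higher, beside 11.3% of all genes that were higher. DESeq2 called 47 members higher, beside 4.63% of the genes it tested, and limma-voom called 0, beside 0% of all genes. Nothing is read from these counts, since the contrast led to the family. Without vehicle replicate 1, 69 members were above 0 and 10 below, and the median was 0.39. Without vehicle replicate 2 the median was 0.61 and edgeR called 50 members, beside 10.4% of all genes (1652 of 15848). Without GV1001 replicate 1, which enters this contrast only through the shared spread and filter, it called 18, beside 0.512% (81 of 15819).

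In GV1001 cord against naive cord, 75 members were above 0 and 4 below, where 50.5% of all genes were above 0. The median was 0.23 (all genes 0.002). In 35 members the 3 GV1001 libraries all lay above the naive libraries, beside 8.84% of all genes. No member passed in edgeR, beside 0% of all genes, with a smallest adjusted p of 0.589. At an unadjusted edgeR p under 0.05, 26 members were higher, beside 4.35% of all genes that were higher. DESeq2 called 2 members higher, Rpl37a and Rpl41, beside 0.268%, and limma-voom 0, beside 0%. Without GV1001 replicate 2, 66 members were above 0 and 13 below.

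Against EAE vehicle, GV1001 cord had 77 members lower and 2 higher, where 48.6% of all genes were higher. The median was −0.28 (all genes −0.009). In 18 members the 3 GV1001 libraries all lay below the vehicle libraries, beside 4.57% of all genes. The edgeR test called 0 members, beside 0% of all genes, with a smallest adjusted p of 0.528. At an unadjusted edgeR p under 0.05, 24 members were lower, beside 4.51% of all genes that were lower. DESeq2 called 0 members lower, beside 0.0204% of the genes it tested that were lower, and limma-voom called 0, beside 0%. The median moved to −0.13 without vehicle replicate 1, with 17 members higher and 62 lower. The 3 comparisons share libraries, so their values are set side by side and are not independent of each other. A family chosen as high in these vehicle libraries against these naive libraries can appear lower in GV1001 against vehicle for that reason. It can likewise appear higher in GV1001 against naive.

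**Figure D2:**
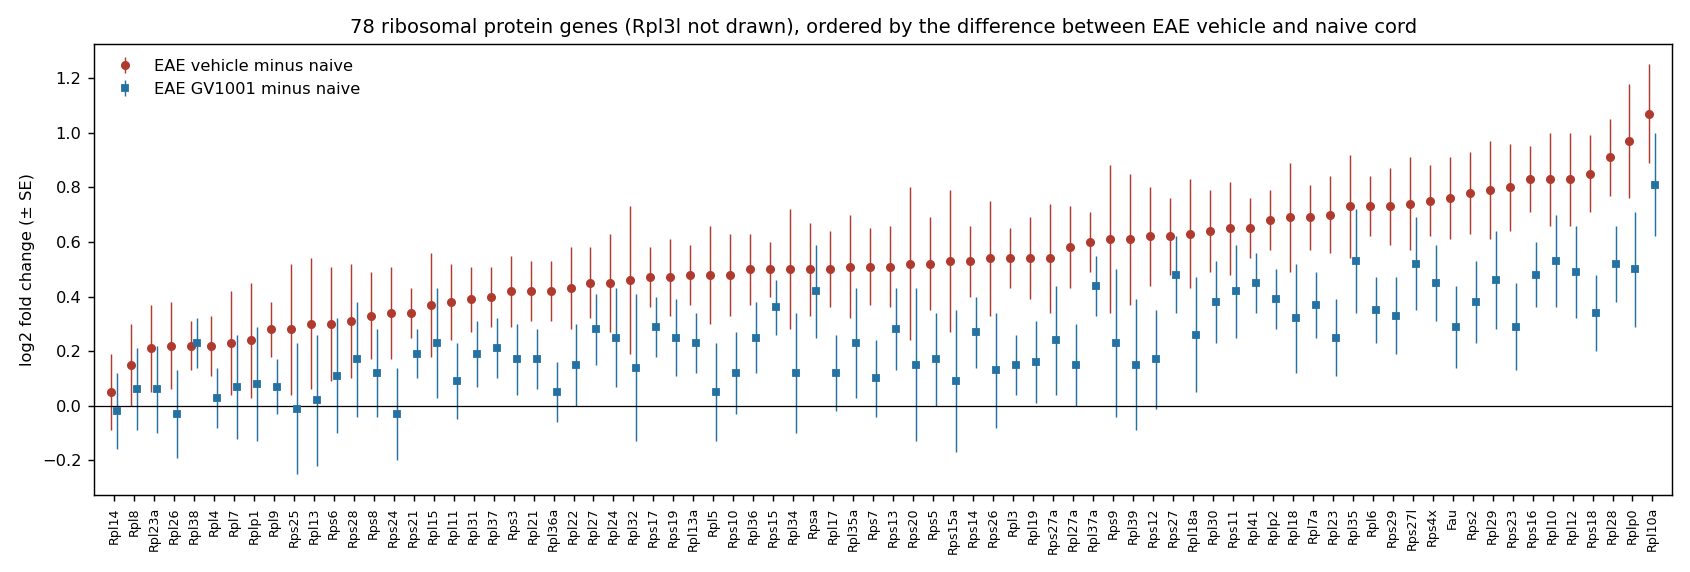
The log2 fold change (y axis, ± SE) of 78 members ordered by EAE vehicle minus naive, with EAE vehicle minus naive as circles and EAE GV1001 minus naive as squares; Rpl3l is left out because its SE was 1.5. Circles run from 0.05 for Rpl14 to 1.07 for Rpl10a, and the squares lie lower in all members drawn except Rpl38.

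Among the small subunit proteins, Rps16 sits close to the decoding site. Its level was 110, 100 and 108 CPM in naive cord, 210, 171 and 187 under vehicle and 172, 139 and 132 under GV1001. Naive libraries lay below all EAE libraries, and the EAE groups overlapped, with GV1001 replicate 1 just above vehicle replicate 2. The log2 difference was 0.83 ± 0.12 (SE) for vehicle and 0.48 ± 0.12 for GV1001 against naive (edgeR adjusted p = 0.64).

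Rps18, a protein of the small subunit head that contacts the large subunit, had the lowest SD relative to its mean in naive cord of all members. It stood at 80.9, 80.3 and 81.2 CPM there, at 176, 120 and 143 in vehicle and at 109, 107 and 91.2 in GV1001 libraries. The 3 groups did not overlap. Vehicle was higher than naive by 0.85 ± 0.14 on the log2 scale and GV1001 by 0.34 ± 0.14, while the difference of GV1001 from vehicle was −0.52 ± 0.14 (edgeR adjusted p = 0.528), the lowest log2 difference of that comparison among the members.

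Such a separation of all 3 groups, naive lowest and vehicle highest, was seen in 9 members, which were Fau, Rpl28, Rpl37, Rpl6, Rplp2, Rps15, Rps18, Rps21 and Rps29. The share of all genes tested with this order was not counted, so nothing is read from the 9. Whether the proteins of these genes share a role beyond the ribosome was not tested. Rps21 had 875, 815 and 917 CPM in naive cord, 1154, 1070 and 1088 under vehicle and 1044, 1006 and 924 under GV1001, so its groups were apart by narrow margins. Rps29, a zinc-binding protein of the head, had 718, 606 and 743 CPM in naive libraries, then 1379, 950 and 1109 in vehicle, then 852, 926 and 819 in GV1001 libraries, the order of groups also used for the genes that follow. Its vehicle group was wide and its GV1001 group narrow. Rps15, whose tail reaches toward the A site, had 260, 225 and 254 CPM, then 368, 337 and 339, then 335, 330 and 284. Here the nearest libraries of the GV1001 and vehicle groups stood at 335 and 337 CPM, and the log2 difference of GV1001 from vehicle was −0.14 ± 0.1.

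Rps2, Rps3 and Fau line the channel through which mRNA enters. Fau, made as a fusion of a ubiquitin-like domain with the ribosomal protein eS30, was at 144, 131 and 135 CPM in naive cord, 289, 183 and 219 under vehicle and 181, 174 and 146 under GV1001. Vehicle exceeded naive by 0.76 ± 0.15 (log2) and GV1001 exceeded naive by 0.29 ± 0.15 (edgeR adjusted p = 0.73). Rps3, which also has a part in DNA repair, differed less, at 336, 314 and 362 CPM, 534, 432 and 393, and 370, 426 and 345, with log2 differences from naive of 0.42 ± 0.13 and 0.17 ± 0.13. The other fusion member, Rps27a, which is made joined to ubiquitin, ran differently within the GV1001 group. It had 108, 110 and 117 CPM in naive cord, 141, 168 and 180 under vehicle and 185, 105 and 105 under GV1001. GV1001 replicate 1 alone reached the vehicle level, and the other 2 lay below the naive libraries.

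Rps6, the S6 kinase substrate of the small subunit, showed the same split. Its values were 30.4, 31.9 and 31.3 CPM in naive cord, 36.7, 43.9 and 34.4 under vehicle and 46.9, 25.4 and 29.1 under GV1001. The GV1001 group spanned the whole range of the other groups, and its difference from naive was 0.11 ± 0.21 (log2). Rps23, which lies at the decoding centre, had 98, 96.6 and 112 CPM, then 176, 172 and 186, then 165, 102 and 109. Vehicle was above naive by 0.8 ± 0.16, and GV1001 was below vehicle by 0.5 (−0.5 ± 0.16, edgeR adjusted p = 0.528).

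Rpsa, which also serves as a laminin receptor, was the 1 member apart from naive only in the GV1001 group. It had 92.3, 81.4 and 82.3 CPM in naive cord, 139, 135 and 86.9 under vehicle and 115, 126 and 101 under GV1001, so that vehicle replicate 3 overlapped the naive group. Rps24, mutated in some humans with Diamond-Blackfan anaemia, stood at 413, 428 and 472 CPM, then 735, 473 and 452, then 417, 469 and 402, and vehicle replicate 1 alone lay far above the naive range. Rps14, of the small subunit platform, lay at 755, 660 and 765 CPM, then 1254, 945 and 952, then 829, 956 and 842, with both EAE groups above naive.

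Of the P stalk, which recruits the elongation factors to the large subunit, Rplp2 and Rplp0 stood well above naive in EAE and Rplp1 did not. Rplp2 had 287, 279 and 283 CPM in naive cord, 504, 396 and 459 under vehicle and 392, 394 and 330 under GV1001, with log2 differences from naive of 0.68 ± 0.11 and 0.39 ± 0.11 (edgeR adjusted p = 0.64 for GV1001). Rplp0 had 100, 114 and 97.5 CPM, then 279, 143 and 191, then 134, 169 and 137, and a ratio of 2.86 between its highest and lowest library. Rplp1 had 939, 1056 and 1020 CPM, then 1626, 898 and 1033, then 817, 1244 and 1123. Only vehicle replicate 1 and 2 GV1001 libraries exceeded the naive range, and the lowest libraries of both EAE groups were below it.

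In the large subunit body, Rpl28, a protein found in eukaryotes but not bacteria, had 100, 78.4 and 90.3 CPM in naive cord, 163, 185 and 157 under vehicle and 153, 123 and 111 under GV1001. The 3 groups were apart, with log2 differences of 0.91 ± 0.14 (vehicle) and 0.52 ± 0.14 (GV1001, edgeR adjusted p = 0.64) from naive. Rpl10a, a protein of the L1 stalk that moves the spent tRNA out, had the highest log2 differences of the family without Rpl3l. Its level was 9.6, 9.41 and 8.51 CPM in naive cord, 19.3, 16.5 and 22 under vehicle and 18, 16 and 14.6 under GV1001, from 46 to 130 counts. Both EAE groups lay well above naive, at 1.07 ± 0.18 and 0.81 ± 0.19 (edgeR adjusted p = 0.589), which are folds of 2.1 and 1.75.

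Rpl6, of the solvent side, had 104, 98.5 and 124 CPM, then 177, 170 and 193, then 153, 134 and 128, with the 3 groups apart. Rpl37, a zinc-binding protein, had 783, 684 and 850 CPM, then 1125, 1001 and 929, then 908, 906 and 867, apart by less. Rpl41, the smallest of these proteins, was at 209, 191 and 200 CPM, then 320, 321 and 300, then 321, 249 and 251. In Rpl41 the vehicle libraries were close together, and GV1001 replicate 1 lay with them. Rpl37a, another zinc-binding protein, had 226, 197 and 216 CPM, then 326, 316 and 328, then 332, 275 and 262, again with GV1001 replicate 1 at the vehicle level. Against naive, GV1001 differed by 0.45 ± 0.11 for Rpl41 (edgeR adjusted p = 0.628) and 0.44 ± 0.11 for Rpl37a (edgeR adjusted p = 0.593).

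Rpl5 and Rpl11 bind the 5S rRNA, and the complex they form can hold Mdm2, the ubiquitin ligase of p53. Rpl5 had 44, 34.7 and 40.9 CPM in naive cord, 60.5, 44.1 and 62.3 under vehicle and 49.9, 34.4 and 39.3 under GV1001. Rpl11 had 325, 324 and 330 CPM, then 522, 353 and 401, then 315, 386 and 339. For both genes the vehicle libraries were above naive, by 0.48 ± 0.18 and 0.38 ± 0.14, and the GV1001 group overlapped naive, at 0.05 ± 0.18 and 0.09 ± 0.14.

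Several large subunit members overlapped naive in GV1001 cord and lay above it in vehicle cord. Rpl3, near the peptidyl transferase centre, had 152, 141 and 147 CPM in naive cord, 220, 200 and 219 under vehicle and 185, 161 and 142 under GV1001. Rpl23, on the face toward the small subunit, had 192, 181 and 194 CPM, then 323, 313 and 284, then 270, 225 and 177. Rpl36a, near the E site, had 215, 213 and 229 CPM, then 336, 277 and 266, then 226, 250 and 204. In all 3 the GV1001 libraries lay below every vehicle library and overlapped naive. The log2 differences of GV1001 from vehicle were −0.39 ± 0.11, −0.45 ± 0.14 and −0.37 ± 0.11, with an edgeR adjusted p of 0.528 for each. Rpl13a, which also silences inflammatory messages in human myeloid cells as part of the GAIT complex, had 324, 301 and 318 CPM, then 472, 397 and 448, then 418, 370 and 316, with vehicle above naive by 0.48 ± 0.11.

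The nascent chain leaves the large subunit through a tunnel lined by Rpl4, Rpl17 and Rpl39, whose median log2 difference was 0.5 in vehicle and 0.12 in GV1001 cord against naive. In 2 of these 3 the vehicle libraries all lay above naive, beside 12% of all genes, and in 0 of them the GV1001 libraries did, beside 8.84%. Around the exit lie Rpl19, Rpl22, Rpl23a, Rpl26, Rpl31 and Rpl35, with medians of 0.41 and 0.16, of which 4 in vehicle and 3 in GV1001 cord lay wholly above naive, beside the same shares of all genes.

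At the other end of the family, Rpl14, of the solvent side, hardly differed. It had 194, 208 and 218 CPM in naive cord, 268, 177 and 199 under vehicle and 185, 216 and 210 under GV1001, and its highest and lowest libraries were vehicle replicates 1 and 2. Rpl8, of the peptidyl transferase centre, had 334, 315 and 321 CPM, then 462, 303 and 312, then 310, 363 and 339. Rpl23a, at the tunnel exit where nascent chains emerge, had 543, 498 and 583 CPM, then 796, 502 and 576, then 498, 634 and 567, and Rpl26, also at the exit, had 206, 209 and 225 CPM, then 325, 207 and 216, then 191, 220 and 214. In each of these, vehicle replicate 1 was high and the other vehicle libraries were inside or below the naive range. Their log2 differences of vehicle from naive were 0.05 ± 0.14, 0.15 ± 0.15, 0.21 ± 0.16 and 0.22 ± 0.16, and all 4 were below 0 without vehicle replicate 1, as was Rplp1.

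Rpl38, known in mice for a part in the translation of Hox messages, was the flattest within EAE. It had 269, 241 and 260 CPM in naive cord, 303, 298 and 299 under vehicle and 324, 288 and 292 under GV1001. Both EAE groups were above naive, by 0.22 ± 0.09 and 0.23 ± 0.09, and they differed from each other by 0.01 ± 0.09 (edgeR adjusted p = 0.987).

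A pair of members are paralogs with other histories. Rps27l, a target of p53, had 33, 31.2 and 29.4 CPM in naive cord, 61.8, 38.5 and 55.9 under vehicle and 47.5, 45.7 and 41.1 under GV1001, and its partner Rps27 had 237, 202 and 236 CPM, then 414, 290 and 334, then 331, 339 and 267. Both lay above naive in both EAE groups, by 0.74 ± 0.17 and 0.62 ± 0.14 in vehicle and by 0.52 ± 0.17 and 0.48 ± 0.14 in GV1001. Rpl29, a heparin-binding protein with 60 other genes that match its 3′ end, had 24.3, 21.4 and 18.1 CPM, then 37.4, 40.8 and 32.2, then 36.3, 24.7 and 27.

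Rpl3l, which replaces Rpl3 in the ribosomes of skeletal and heart muscle, did not run with the rest of the family. It had 2, 2 and 7 counts in the naive, 16, 27 and 1 in the vehicle and 91, 25 and 4 in the GV1001 libraries, where a library with under 3 counts is at the floor (0.486 to 0.572 CPM). Its libraries ran in a similar but not identical order to the summed level of 9 skeletal muscle markers. In CPM of the total count that sum was 24.1, 32.5 and 212 in naive cord, 114, 441 and 17.6 under vehicle and 4268, 1174 and 431 under GV1001. Muscle lies outside the cord, and the source of the Rpl3l reads was not tested. The log2 difference of GV1001 from vehicle was 1.41 ± 0.92, opposite in sign to the 77 members that were lower, with overlapping groups.

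**Figure D3:**
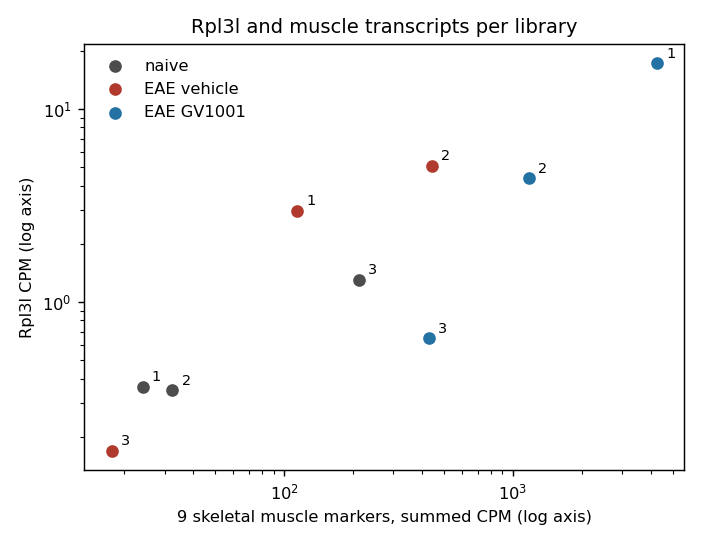
Rpl3l (y axis, CPM of the TMM-scaled library size, log scale) against the summed level of 9 skeletal muscle markers (x axis, CPM of the total count, log scale), 1 point per library with its replicate number. Rpl3l was highest in GV1001 replicate 1, where the muscle markers reached 4268 CPM, and lowest in vehicle replicate 3, where they were at 17.6 CPM.

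Within the EAE groups, the members did not keep 1 order of libraries. Vehicle replicate 1 held the highest level of its group for 63 members, where 40.2% of all genes were highest there. Replicates 2 and 3 held it for 8 each, beside 35.5% and 24.4% of all genes. Among GV1001 libraries, replicate 1 was highest for 42 members, replicate 2 for 36 and replicate 3 for 1. The shares of all genes highest there were 38.4%, 33.7% and 27.9%. Without Rpl3l, the ratio of vehicle replicate 1 to replicate 2 was highest at 2.46 for Rps9, 2.41 for Rps20, 2.38 for Rpl32 and 2.3 for Rps15a. It was lowest at 0.837 for Rps27a, 0.834 for Rps6 and 0.695 for Rpl15. The same genes were split in the GV1001 group, where the ratio of replicate 2 to replicate 1 was 1.51, 1.57, 1.55 and 1.49 for the first 4 and 0.57, 0.542 and 0.632 for the last 3. Rps9, in the body of the small subunit, had 194, 214 and 197 CPM in naive cord, 464, 188 and 269 under vehicle and 192, 290 and 225 under GV1001. Rps15a, another protein of that subunit, had 151, 152 and 161 CPM, then 337, 147 and 188, then 131, 195 and 167. Rpl35, at the tunnel exit, had 110, 108 and 110 CPM, then 188, 185 and 172, then 218, 137 and 118. It went the other way only in the GV1001 group, with a ratio of 0.628. Its ratio in the vehicle group was 1.02.

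Over the 78 members without Rpl3l, deviations from the group mean in vehicle replicate 1 and GV1001 replicate 2 had a Pearson correlation of 0.86, where it was 0.57 over the 15351 genes tested. For vehicle replicate 1 and GV1001 replicate 1 it was −0.87 (all genes −0.47), and for vehicle replicate 2 and GV1001 replicate 1 it was 0.74 (0.46). These are correlations across genes, which are not independent replicates, and the deviations of the 3 libraries of a group sum to 0. Vehicle replicate 1 and GV1001 replicate 2 were also the libraries with the highest microglial and monocyte markers of their groups, at 3227 and 1279 CPM for microglia. The rows named as processed copies of these genes showed a like split. They summed to 28.3, 40.4 and 36.6 CPM in naive cord, 66.8, 25.3 and 20.2 under vehicle and 20.4, 45.3 and 42.8 under GV1001. The part of cell makeup, of extraction and of reads shared with copies in this split was not tested.

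**Figure D4:**
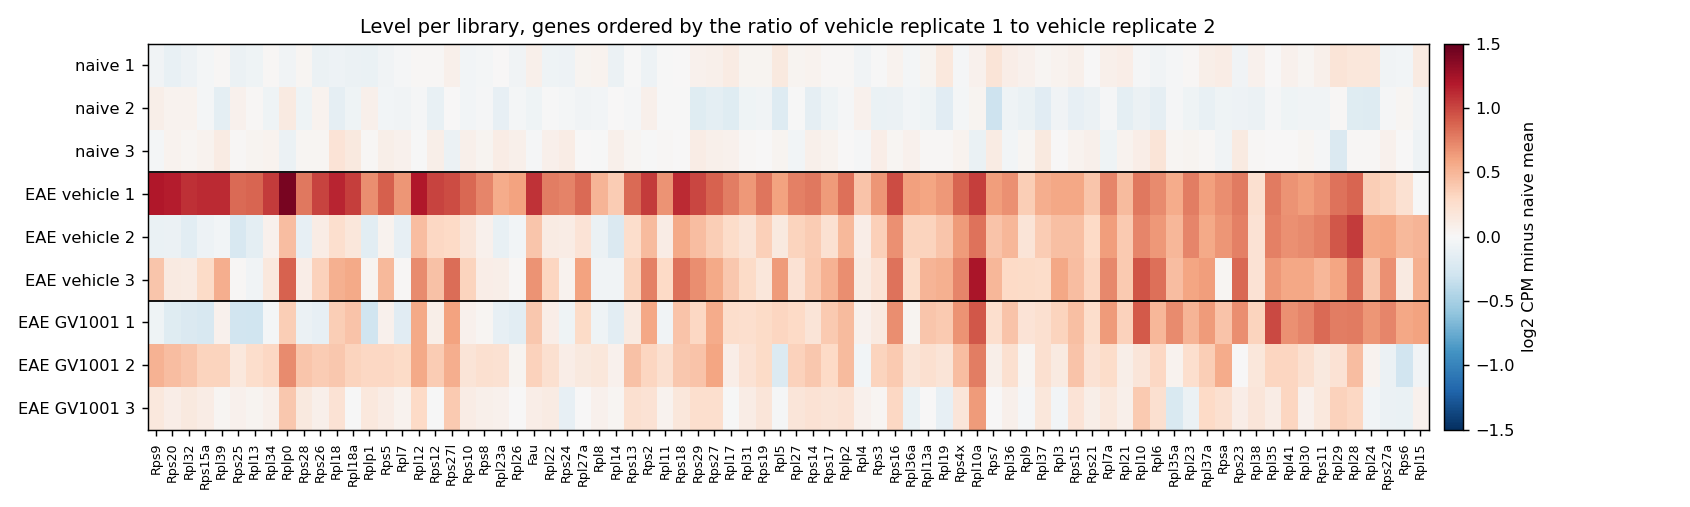
Level of 78 members (columns) in each of the 9 libraries (rows) as log2 CPM minus the mean of the 3 naive libraries, with columns ordered by the ratio of vehicle replicate 1 to vehicle replicate 2. From Rps9 (2.46) at the left to Rpl15 (0.695) at the right, vehicle replicate 1 and GV1001 replicate 2 fade while GV1001 replicate 1 deepens.

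Near-identical copies are a limit for this family, because reads that fit several places may be split or dropped in counting. In GENCODE M21 transcripts, 55 of the 79 members had at least 1 other gene with 95% identity or more over 100 or more of the last 150 bases, with a median of 4 over all members and up to 62 for Rpl21. The median log2 difference of vehicle from naive was 0.53 in the 24 members with no such match, Rps16, Rpl6 and Rpl14 among them, and 0.51 in the 55 with a match. The median ratio of vehicle replicate 1 to 2 was 1.33 and 1.34. The number of matches had a Spearman correlation of −0.05 with this log2 difference and −0.19 with this ratio. Among genes named above for a high ratio, Rps9 had 1 match, Rps20 0, Rpl32 3 and Rps15a 8. Among those named for a low ratio, Rps27a had 13, Rps6 13 and Rpl15 17. The part of copies in either value was not tested. Because of such copies, CPM values are compared here within a gene and not between genes.

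Ribosomal proteins whose symbols the rule leaves out behaved in several ways. Rps3a1 was higher in vehicle by 0.7 ± 0.15 (log2) and Rack1, the signalling scaffold of the small subunit, by 0.85 ± 0.3, with 493 CPM in vehicle replicate 1 and 187 in replicate 2. Rpl36al was higher by 0.64 ± 0.27, and Rpl22l1, a paralog of Rpl22, differed by 0.07 ± 0.13. The copy Rps4l had the opposite sign, at −0.42 ± 0.16.

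The other parts of the translation machinery were compared through lists that were drawn up with earlier results known. Of 17 translation factors and other genes known for TOP messages, Rack1 among them, 16 were above 0 in vehicle against naive, beside 49.5% of all genes, with a median of 0.35. In 7 the vehicle libraries all lay above the naive libraries, beside 12% of all genes. Tpt1, the translationally controlled tumour protein, had 104, 104 and 108 CPM in naive cord, 186, 145 and 189 under vehicle and 159, 131 and 121 under GV1001, and Eif3e, an initiation factor subunit, was higher by 0.55 ± 0.12. Eef2, the translocation factor, was counted among the 16 but did not follow, with a log2 difference that rounds to 0.0 ± 0.12. It had 907, 844 and 910 CPM, then 999, 884 and 781, then 855, 1039 and 985.

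The other lists, of which ribosome biogenesis shared Npm1 with the list above, had medians near 0. The median log2 difference of vehicle from naive was −0.02 for 77 mitochondrial ribosomal proteins, 0.02 for 26 initiation factors, −0.01 for 39 genes of ribosome biogenesis, 0.08 for 14 genes of RNA polymerase I and −0.03 for 18 short transcripts of the respiratory chain. Single genes within them stood out, such as the rRNA methyltransferase Fbl, at 6.7, 2.96 and 5 CPM in naive cord, 9.07, 9.2 and 7.45 under vehicle and 6.24, 3.68 and 4.04 under GV1001. Of 15 tested genes of S6 kinase and mTORC1 signalling the median was 0.01. Eif4ebp1, the translation repressor that mTORC1 inactivates, was the highest of them, at 1.63, 1.57 and 1.85 CPM in naive cord, 12.6, 4.51 and 7.29 under vehicle and 6.62, 7.89 and 2.59 under GV1001. In none of these lists did edgeR call a gene in any of the 3 comparisons.

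**Figure D5:**
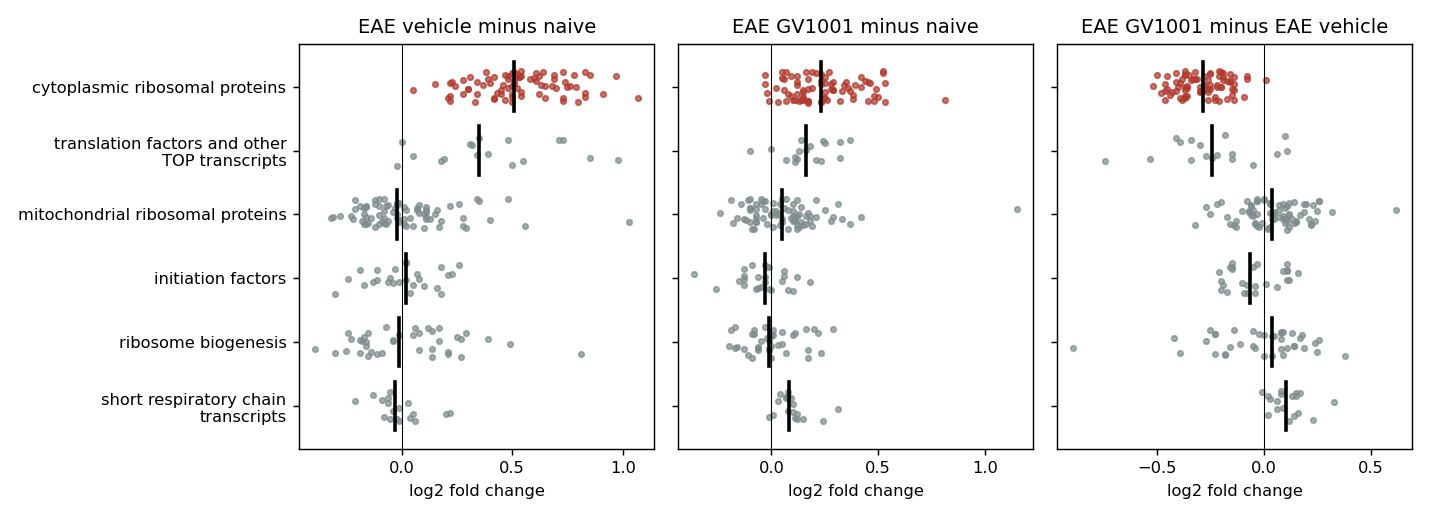
The log2 fold change (x axis) of each gene (points) in 6 lists (rows) for the 3 comparisons (panels), with the median of each list as a bar; Rpl3l is left out. In EAE vehicle minus naive the ribosomal proteins lie around 0.51 and the TOP list around 0.35, while the mitochondrial ribosomal proteins lie around −0.02.

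In the other comparisons the TOP list had medians of 0.16 (GV1001 against naive) and −0.24 (GV1001 against vehicle), where the family had 0.23 and −0.28. The mitochondrial ribosomal proteins had 0.05 and 0.04, and the short respiratory chain transcripts 0.08 and 0.1. The difference between the family and these lists was not tested.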

How the data were processed

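Whole cord RNA of 9 libraries was read with a QuantSeq 3′ kit. The deposited values are raw counts per gene symbol. Per the submitters' processing notes FastQC, STAR, HTSeq and GRCm39 were used; versions, annotation and any use of molecular identifiers are not given in the sources used here. Groups came from the treatment labels. The members and lists were chosen with earlier results of these data known. Genes were filtered with filterByExpr (minimum count 10) and scaled by TMM. All 9 libraries entered 1 quasi-likelihood fit and F test (edgeR 4.0.16, R 4.3.3), with Benjamini-Hochberg adjustment over 15351 genes and a threshold of 0.05; standard errors came from the F statistic. DESeq2 1.42.0 (which gave an adjusted p for 14682 to 17718 genes) and limma-voom (limma 3.58.1) were alternatives, beside other scalings, no filter, single comparisons, the replicate number as a block and leaving out each library. The procedure was tested on simulated data. Members named were the 6 with the smallest p and the 3 furthest against the family per comparison, the 5 with the highest and 3 with the lowest mean CPM, the 3 with the widest range, and 15 fixed by role. Rps9, Rps15a, Rps20, Rpl15, Rpl32, Rpl35, Fbl, Eef2 and Rps4l were named after their values were seen. The longer pyrimidine run was added to a planned shorter form after the promoters were seen. Copies were sought with blastn 2.17.0+, and matplotlib 3.10.9 in Python 3.11.15 drew the figures. Replicates of a group differed beyond sampling noise (chi-square per degree of freedom 2.45 to 31.37). Precision rests on 3 libraries a group; the floor of 3 counts covers counting error only. Replicate numbers were not taken to pair libraries. Some genes of the lists and of the naming rule are not reported here.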

Additional observations from a re-analysis of the deposited data

How the results depend on the processing

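Against naive, EAE vehicle had 0 members called in edgeR, 47 in DESeq2 (4.63% of all genes higher), 5 with library totals as the scale (0.13% of all genes) and 28 with no filter on low counts (2.02%), and between 0 and 50 when each library was left out (50 without vehicle replicate 2, beside 10.4% of all genes, and 18 without GV1001 replicate 1, beside 0.512%). Against naive, GV1001 had 0 in edgeR (0% of all genes) and 2 in DESeq2 (0.268% of all genes higher). The family's median difference of GV1001 from vehicle ran from −0.36 to −0.13 when each library was left out, nearest 0 without vehicle replicate 1. With the replicate number as a block, the medians were 0.5, 0.22 and −0.27 and 0 members were called in the 3 comparisons; 2 of 9 same-number pairs had a correlation above 0.1, so the numbers were not taken to pair libraries. The sign of some members depended on 1 library, with these ranges of the log2 difference when each was left out. In vehicle against naive they were −0.14 to 0.18 for Rpl14, −0.01 to 0.34 for Rpl23a and for Rpl26, −0.07 to 0.26 for Rpl8 −0.06 to 0.41 for Rplp1 and −0.01 to 0.69 for Rpl32. In GV1001 against naive they were −0.07 to 0.04 for Rpl14, −0.11 to 0.16 for Rpl5, −0.1 to 0.02 for Rps24, −0.08 to 0.02 for Rpl26, −0.09 to 0.37 for Rps27a, −0.19 to 0.28 for Rps6, −0.02 to 0.15 for Rpl23a, −0.03 to 0.12 for Rpl36a, −0.05 to 0.23 for Rplp1, −0.05 to 0.22 for Rps15a, −0.04 to 0.29 for Rps20 and −0.02 to 0.29 for Rpl32; with library totals Rpl14 was at 0.01. In GV1001 against vehicle they were −0.2 to 0.11 for Rpl14, −0.28 to 0.07 for Rpl23a, −0.2 to 0.14 for Rpl8, −0.33 to 0.13 for Rplp1, −0.28 to 0.04 for Rpsa, −0.05 to 0.04 for Rpl38, −0.64 to 0.04 for Rps9, −0.61 to 0.12 for Rps20, −0.56 to 0.14 for Rpl32 and −0.12 to 2.21 for Rpl3l. The other values of named members kept their sign in the alternatives run, 18 per result. Rpl3l against naive had 17, since the filter of a fit to 2 groups left it out. With each named member counted under each alternative, 89 of 773 values passed the threshold in vehicle against naive. In GV1001 against naive 2 of 773 did. Nothing is read from either count, since some members were named for a small p and the alternatives refit the same libraries. Over all genes fitted, the alternatives called from 0% to 10.4% in the first comparison and from 0% to 0.171% in the second. The 0.171% is the DESeq2 share of every gene fitted, in either direction. The 0.268% above is its share, higher only, of genes given an adjusted p. The causes of the shifts between alternatives were not tested.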
